A study of Mus musculus with 25 samples.

Results

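The 55 genes described here encode DNA damage signalling and DNA repair proteins. They were taken by gene symbol from a list written with earlier results of these data known, and no measured value entered the choice. All 55 were found among the 24708 gene loci of each expression table. They were sorted by textbook role into 13 break sensors and checkpoint signalling genes, 15 homologous recombination genes, 10 Fanconi anaemia pathway genes, 5 end joining genes, 7 genes of base excision and single-strand break repair, 2 mismatch repair genes and 3 nucleotide excision repair genes. The expression tables came from mouse embryos of strain BDF1 at 2 stages. At embryonic day 1.5 the libraries were 2-cell embryos labelled WT (n = 2), sIVF (n = 2) and IVF (n = 2). At embryonic day 4.0 they were blastocysts labelled Control (n = 2) and Fzr1-OE (n = 3). IVF is in vitro fertilization, the labels do not spell out sIVF, and OE was read as overexpression of Fzr1, the gene of a co-activator of the anaphase-promoting ubiquitin ligase. The labels do not give how the WT or Control embryos were obtained, how Fzr1 was overexpressed, how many embryos a library pooled, or whether replicates came from separate collections. P-values therefore measure only the spread between these libraries, which may be technical.

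A broken chromosome is bound by sensor proteins that switch on the Atm and Atr kinases, which act through the checkpoint kinases Chek1 and Chek2 to hold the cell cycle. The break is then rejoined end to end, or copied from the sister chromatid by homologous recombination, while the Fanconi anaemia pathway frees crosslinked strands and the excision pathways replace damaged or mispaired bases. Early mouse embryos start with transcripts stored in the oocyte and replace them with their own, mainly during the 2-cell stage.

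Gene levels were deposited as FPKM, which is fragments scaled to transcript length and library size, so levels may be compared between genes. The fragments implied by the deposited FPKM bounds summed to between 4742698 and 6377606 per 2-cell library and between 9324167 and 10483442 per blastocyst library. Among the 43 to 51 repair genes above 0 in a 2-cell library, the median gene rested on 83.5 to 140 implied fragments, and over all 55 in a blastocyst library on 227.4 to 319.8. Oocyte-deposited markers summed to between 98.7 and 213.7 FPKM in the 2-cell libraries and to at most 2.52 FPKM in the blastocysts. Cumulus markers summed to 3.92 FPKM in WT replicate 1, 3.48 in IVF replicate 2 and at most 0.691 elsewhere, and fibroblast markers to at most 0.357. Blood and macrophage markers summed to 1.08 to 4.95 FPKM in the 2-cell libraries and 7.65 to 22.2 in the blastocysts. In each library 1 or 2 of these 5 genes reached 1 FPKM. Trophectoderm markers summed to 3548 to 3612 FPKM in the blastocysts labelled Fzr1-OE and to 5599 and 5639 FPKM in the Control blastocysts. Fzr1 itself stood at 12.7, 15.5 and 17.1 FPKM in the libraries labelled Fzr1-OE and at 16.5 and 16.5 in Control, a log2 fold change of -0.13 with an adjusted p of 0.713 by limma. Whether an added transcript would be counted at this locus is not given in the sources used here, so the value does not check the label.

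Most of the repair genes had means under 10 FPKM, though most loci were lower still. In WT 2-cell embryos 35 of the 55 had a mean of at least 1 FPKM and 6 had at least 10, and in Control blastocysts these counts were 52 and 16. Of the 24708 loci, 7842 had a mean of at least 1 FPKM in WT and 9359 in Control. The repair gene at the median lay above 74.9% of all loci in WT (Mus81) and above 76.7% in Control (Topbp1). The median of the gene means was 2.27 FPKM in WT, 2.13 in sIVF and 2.46 in IVF 2-cell embryos, against 5.22 in Control and 5.08 in Fzr1-OE blastocysts. The 55 genes together took 0.0850% to 0.104% of the summed FPKM of a 2-cell library and 0.110% to 0.119% of a blastocyst library.

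Apex1, the endonuclease that cuts the backbone where a base has been lost, had the highest mean of the 55 in all 5 groups. Its levels were 72.5 and 53.0 FPKM in WT, 93.0 and 74.2 in sIVF, 63.2 and 33.0 in IVF, 110.7 and 117.4 in Control and 114.4, 114.9 and 118.2 in Fzr1-OE embryos. The next in WT 2-cell embryos were Brca2, which loads the recombinase onto resected DNA, at a mean of 29.1 FPKM, and the checkpoint kinase Chek2 at 20.5. In Control blastocysts Apex1 was followed by Rnf8, the ubiquitin ligase that marks chromatin at breaks, at a mean of 39.5 FPKM. Brca2 led the recombination genes in all 3 2-cell groups and Rad54l in both blastocyst groups. Among sensors and checkpoint genes Rnf8 led in every group but WT, where Chek2 and Rnf8, at means of 20.5 and 20.4 FPKM, did not differ beyond the spread of their replicates. Xrcc4 had the highest mean of end joining in WT, IVF and Fzr1-OE embryos and Xrcc6 in sIVF and Control. The values of these genes overlapped in sIVF (means of 3.16 FPKM for Xrcc6 and 2.98 for Xrcc4). They also overlapped in Fzr1-OE (27.1 and 27.8). Fancm, the helicase that anchors the Fanconi core complex, led its pathway at both stages with 9.52 and 7.42 FPKM. The mismatch recognition gene Msh6, with means of 9.6 and 15.9 FPKM, and the excision nuclease subunit Ercc1, with 10.4 and 34.7, led theirs.

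**Figure D1:**
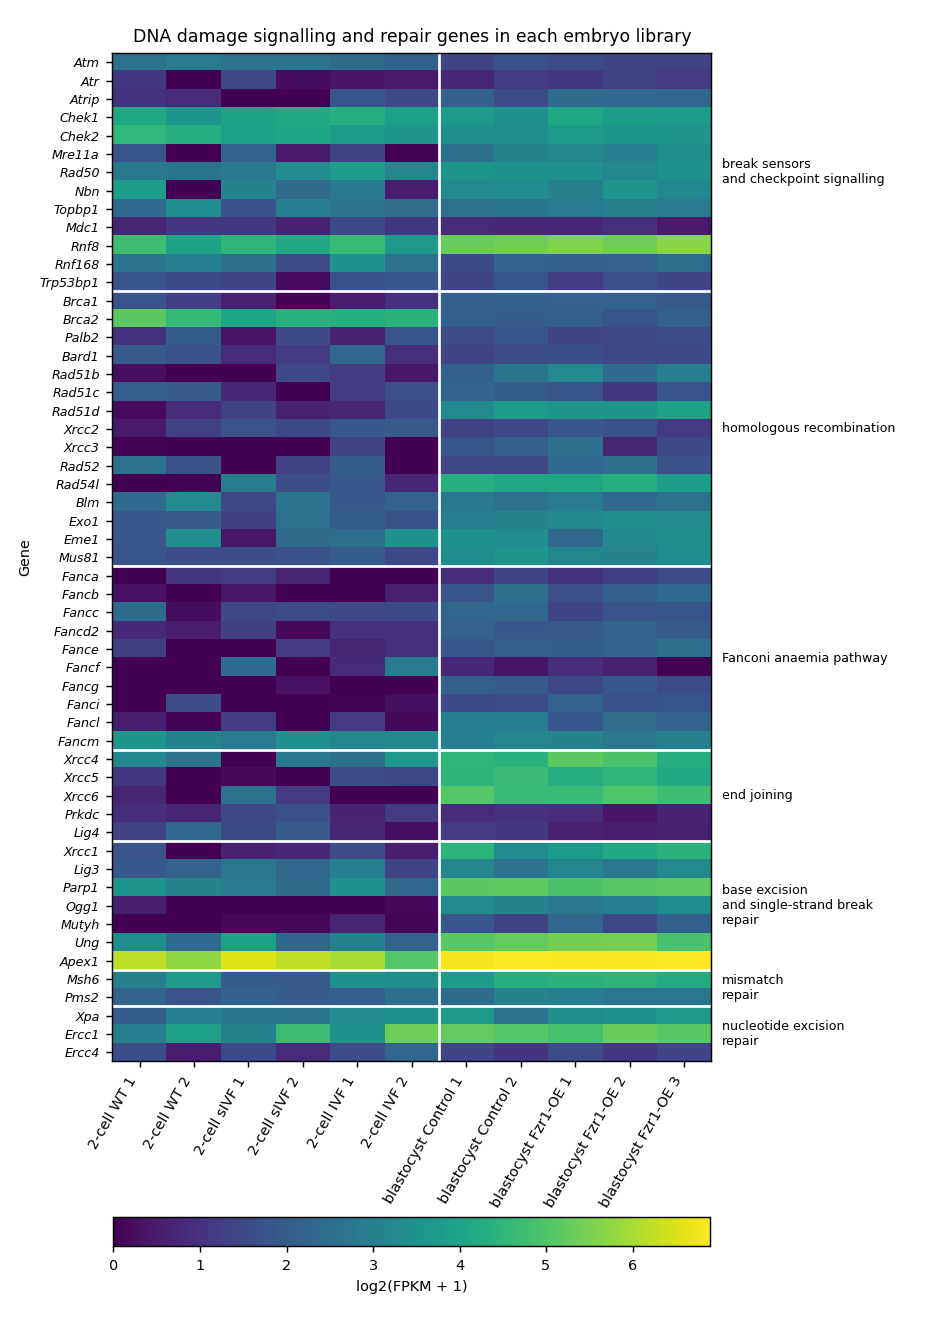
Each row is 1 of the 55 repair genes, grouped by role, and each column is 1 embryo library. Colour gives log2(FPKM + 1), and the vertical white line parts the 6 2-cell libraries from the 5 blastocyst libraries. Apex1 is brightest in every library but IVF replicate 2, where Ercc1 is brighter. Brca2 is brighter on the left, and Xrcc5, Xrcc6 and Rad54l are brighter on the right.

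Replicates of the 2-cell stage disagreed gene by gene. WT replicate 2 listed 12 of the 55 genes at 0, against 4 to 8 in the other 5 2-cell libraries and none in the blastocysts; over all loci it had 10085 above 0, against 10235 to 11860 in those 5 libraries. Nbn, a subunit of the break-binding Mre11 complex, read 13.6 FPKM in WT replicate 1 and 0 in WT replicate 2. Its partner Mre11a read 2.48 and 0, the single-strand break scaffold Xrcc1 read 2.41 and 0, and the Fanconi core gene Fancc read 4.46 and 0.163. In WT, 28 of the 35 genes with a mean of at least 1 FPKM had deposited bounds that did not meet between the replicates, which was 80% of these genes against 72.4% of all such loci. In Control blastocysts this held for 22 of 52, or 42.3%, against 38.2% of all such loci. If the bounds are taken to cover counting error, the 2-cell replicates differed by more than counting for most of these genes. What the deposited bounds cover was not tested.

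The promoters of the repair genes are shown where the stage comparison below gave calls in both directions for genes with the same letters. RefSeq promoter sequences of assembly GRCm38.p6 matched 48 of the 55 genes, and the 250 bases before each start were searched on both strands. The letters TTTCCCGC, which E2F cell cycle factors bind, stood in 6 of the 48, or 12.5%, against 1.03% of the 27025 genes of the table and 2.08% of the 7397 genes tested by stage. The 6 genes were Bard1, Brca2, Chek2, Fancg, Mdc1 and Xrcc6. Of these, Brca2 and Chek2 were lower and Fancg and Xrcc6 higher in the blastocyst, Bard1 did not pass, and Mdc1 was too low to be tested. The 4 promoters with a call are printed 5′ to 3′ on the gene's own strand, with capitals for the letters as they read there, which is GCGGGAAA where the match is on the opposite strand. Brca2 lies at chr5:150522371-150522620 and Chek2 at chr5:110839733-110839982, both on the plus strand, Fancg at chr4:43010302-43010551 on the minus strand, and Xrcc6 at chr15:82016119-82016368 on the plus strand.
Brca2: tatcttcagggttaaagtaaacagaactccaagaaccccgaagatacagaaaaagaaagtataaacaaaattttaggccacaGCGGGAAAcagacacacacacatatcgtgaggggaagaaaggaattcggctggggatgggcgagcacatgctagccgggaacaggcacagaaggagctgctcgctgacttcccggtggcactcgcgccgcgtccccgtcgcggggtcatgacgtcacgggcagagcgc
Chek2: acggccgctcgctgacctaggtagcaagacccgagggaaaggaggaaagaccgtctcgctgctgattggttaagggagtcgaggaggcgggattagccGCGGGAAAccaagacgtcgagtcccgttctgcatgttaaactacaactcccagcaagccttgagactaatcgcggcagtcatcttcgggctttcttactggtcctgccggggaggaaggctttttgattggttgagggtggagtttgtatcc
Fancg: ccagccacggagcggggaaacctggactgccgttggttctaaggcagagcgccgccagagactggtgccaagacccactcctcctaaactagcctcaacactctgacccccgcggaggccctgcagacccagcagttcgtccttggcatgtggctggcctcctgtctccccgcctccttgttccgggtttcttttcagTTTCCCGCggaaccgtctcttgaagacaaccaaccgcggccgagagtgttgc
Xrcc6: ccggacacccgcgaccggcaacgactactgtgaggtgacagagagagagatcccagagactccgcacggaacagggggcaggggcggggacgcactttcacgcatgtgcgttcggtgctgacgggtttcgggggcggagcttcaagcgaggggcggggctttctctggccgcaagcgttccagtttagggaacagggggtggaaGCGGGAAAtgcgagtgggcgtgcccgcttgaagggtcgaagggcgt
In Fancg the letters ended 45 bases before the start and in Xrcc6 they ended 39 bases before it, while in Brca2 and Chek2 they ended 161 and 145 bases before it.

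Of the other letters searched, CCAAT stood in 26 of the 48 promoters, or 54.2%, against 41.5% of the genes tested by stage, and the GC box GGGCGG stood in 30, or 62.5%, against 63.5%. The E2F letters TTTGGCGC stood in none of the 48 and in 1.05% of the genes tested. TTTGAA, the cell cycle homology region, stood in 2 of the 48, or 4.17%, against 12.6%. A match describes the letters only.

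Between WT 2-cell embryos and Control blastocysts, 24 of the 52 repair genes tested rose, 3 fell and 25 did not pass. Both end-binding Ku genes, the recombination translocase Rad54l, the oxidized guanine glycosylase Ogg1 and 5 Fanconi genes were among those that rose, and Brca2, Chek2 and Atm fell. Tests were by limma on log2(FPKM + 1), with adjustment over all 9762 loci and a threshold of 0.05; this scale understates the change of low genes. Of all loci tested, 65.4% passed, 45.8% higher and 19.6% lower, and 68.5% had an unadjusted p under 0.05, which 29 of the 52 genes had. The 46.2% of repair genes that rose was close to the background and the 5.77% that fell was below it. The median repair gene changed by 0.87 and the median locus by 0.88 on the log2 scale, so a change near 0.88 only kept pace with all loci. The WT and Control libraries did not overlap for 39 of the 52 genes, 75% of them against 82.5% of all loci: 32 lay higher in Control, where 56.4% of all loci did, and 7 lay lower, where 26.1% did. After quantile normalization of the libraries the median locus changed by -0.02 and after upper-quartile scaling by 0.16, and the counts of repair genes became 12 higher and 11 lower, and 14 higher and 7 lower. Of the 9762 loci, 2829 were higher and 3033 lower after quantile normalization. The counts of all loci after upper-quartile scaling are not given here. Stage cannot be told apart from library preparation or sequencing run here, and in whole embryos fewer cells of a type and less RNA per cell cannot be told apart. Without Control replicate 1 the count that rose was 14, and without WT replicate 2 it was 18. The genes too low to be tested were Atr, Mdc1 and Fanca.

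To describe what did not turn on the scaling, the genes that passed in the same direction under all 3 scalings were counted, a rule chosen after the values were seen. They were 11 that rose, namely Xrcc5, Xrcc6, Rad54l, Rad51b, Rad51d, Mus81, Fancg, Fancl, Ogg1, Xrcc1 and Parp1, against 28.0% of all loci, and Brca2, Chek2 and Atm that fell, against 19.6%. As shares of the 52 genes tested these were 21.2% and 5.77%. A second description, over all 6 2-cell and all 5 blastocyst libraries, found 23 repair genes whose blastocyst values all lay above their 2-cell values, against 43.0% of all loci, and 2, Brca2 and Atm, whose blastocyst values all lay below, against 17.1%.

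**Figure D2:**
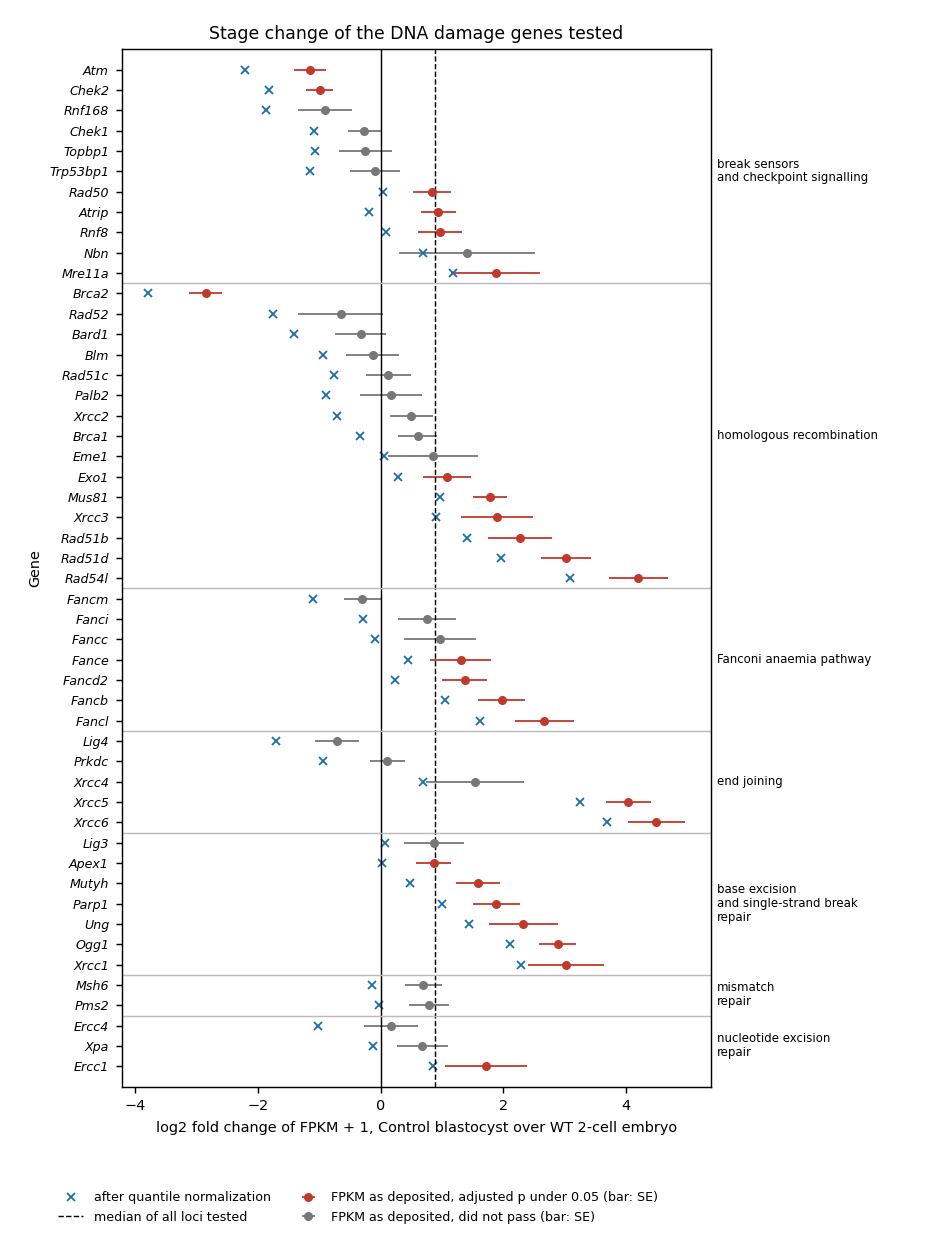
Points give the log2 fold change of FPKM + 1 from WT 2-cell embryos to Control blastocysts with its SE, red where the adjusted p was under 0.05, and crosses give the same after quantile normalization. The dashed line is the median of all loci tested, 0.88. Fancf and Fancg are left out because both WT libraries list them at 0. Xrcc5, Xrcc6 and Rad54l lie farthest to the right and Brca2 farthest to the left under both scalings.

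Break sensors and checkpoint genes gave 4 of 11 that rose and 2 that fell, with a median log2 fold change of -0.09. Atm, the kinase activated by broken ends, read 5.0 and 6.18 FPKM in WT and 1.65 and 2.29 in Control. It stood between 3.45 and 5.22 in the sIVF and IVF embryos and between 1.57 and 1.98 in the Fzr1-OE blastocysts, so the stages did not overlap in any library. The WT to Control change was -1.15 (SE 0.26, adjusted p = 0.00376 by limma). Its effector Chek2 read 22.6 and 18.5 FPKM in WT and 9.77 and 9.70 in Control, a change of -1.0 (SE 0.22, adjusted p = 0.00318 by limma). IVF 2-cell embryos, at 12.5 and 11.2 FPKM, overlapped the Fzr1-OE blastocysts at 11.1, 11.4 and 12.4, so Chek2 did not part the stages in all libraries.

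The other effector kinase, Chek1, read 16.3 and 11.2 FPKM in WT and 12.2 and 10.1 in Control, and its change of -0.27 did not pass (adjusted p = 0.41 by limma); after quantile normalization it was -1.09 and passed (adjusted p = 0.00572 by limma). Rnf8, Rad50, Mre11a and Atrip rose as deposited, by 0.97, 0.83, 1.88 and 0.94, but none of the 4 passed under quantile normalization, where Atrip was at -0.19, and Rad50 was at -0.01 under upper-quartile scaling. Rad50 and Mre11a belong to the complex that binds broken ends, and Atrip brings Atr to single-stranded DNA. Rnf168, the ligase that extends the chromatin mark begun by Rnf8, was at -0.91 and did not pass (adjusted p = 0.0967 by limma), while it passed at -1.87 under quantile normalization. Topbp1, which activates Atr, the break adaptor Trp53bp1 and Nbn, at -0.25, -0.09 and 1.41, did not pass either; Trp53bp1 passed at -1.16 under quantile normalization.

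Homologous recombination genes gave 6 of 15 that rose and 1 that fell, with a median of 0.60. Brca2 showed the largest fall among the 52 genes: 34.7 and 23.4 FPKM in WT against 3.15 and 3.01 in Control, a change of -2.86 (SE 0.27, adjusted p = 2.59e-05 by limma). The other 2-cell embryos held 15.7 to 20.5 FPKM and the Fzr1-OE blastocysts 2.43 to 3.31, so all 6 2-cell libraries lay above all 5 blastocysts. Its partners did not pass. Brca1, the ligase subunit that acts before Brca2, changed by 0.60, the bridging gene Palb2 by 0.17 and the Brca1 partner Bard1 by -0.33.

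Rad54l, which remodels DNA during strand exchange, read at most 0.0237 FPKM in WT and 19.1 and 16.1 in Control, a change of 4.20 (SE 0.48, adjusted p = 7.71e-05 by limma). The sIVF embryos read 6.45 and 2.07 and the IVF embryos 2.66 and 0.678, below the lowest blastocyst at 13.4. Rad51d, a member of the paralog complexes that assist the recombinase, read 0.146 and 0.822 in WT and 8.92 and 12.9 in Control, a change of 3.02 (SE 0.41, adjusted p = 0.00022 by limma). Both genes were lower in every 2-cell library than in any blastocyst. Mus81, the nuclease that cuts branched junctions, read 2.48 and 2.07 in WT and 9.42 and 11 in Control, a change of 1.78 (SE 0.28, adjusted p = 0.00051 by limma), and all 2-cell libraries lay at 3.11 or below. Rad51b rose by 2.27, Xrcc3 by 1.90 and the resection nuclease Exo1 by 1.08; Exo1 and Xrcc3 did not pass after quantile normalization. The genes not yet named that did not pass were Rad52 at -0.65, the helicase Blm at -0.13, Rad51c at 0.12, Xrcc2 at 0.50 and the Mus81 partner Eme1 at 0.85. After quantile normalization 8 more genes passed as lower, namely Rnf168, Lig4, Bard1, Trp53bp1, Fancm, Chek1, Ercc4 and Prkdc, at -1.87 to -0.94. Of these, Rnf168, Lig4, Fancm and Chek1 also passed as lower after upper-quartile scaling, at -1.65 to -1.14.

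Fanconi anaemia genes gave 5 of 9 that rose and none that fell by limma at the adjusted threshold or at an unadjusted p under 0.05, with a median of 1.30. Fancl, the ubiquitin ligase subunit of the core complex, read 0.458 and 0.0512 FPKM in WT and 6.88 and 6.89 in Control, a change of 2.67 (SE 0.48, adjusted p = 0.00109 by limma). Fancg, a core complex scaffold, was listed at 0 in both WT libraries and stood at 3.22 and 2.88 in Control, with an adjusted p of 0.000137 by limma. Fancb, another core subunit, read 0.259 and 0 in WT and 2.44 and 4.62 in Control, a change of 1.97 (SE 0.39, adjusted p = 0.00179 by limma) that was 1.05 and did not pass after quantile normalization (adjusted p = 0.108 by limma). All 3 were at or under 1.36 FPKM in every 2-cell library and at or above 1.83 in every blastocyst. Fancd2, the protein that the core complex ubiquitinates, rose by 1.37 and Fance by 1.30 as deposited, and neither passed after quantile normalization. The Fancd2 partner Fanci, at 0.76, did not pass, nor did Fancm at -0.30, Fancc at 0.97 or Fancf, which WT listed at 0.

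End joining genes gave 2 of 5 that rose, both of them subunits of Ku, the ring that slides onto broken ends. Xrcc6 read 0.669 and 0 FPKM in WT and 32.9 and 24.0 in Control, a change of 4.49 (SE 0.46, adjusted p = 4.17e-05 by limma). Xrcc5 read 1.18 and 0 in WT and 21.5 and 25.1 in Control, a change of 4.04 (SE 0.37, adjusted p = 2.00e-05 by limma). Only Rad54l rose by an amount between the 2, and they lay above 95.5% and 93.5% of all loci tested. In the other 2-cell embryos Xrcc6 reached 5.06 FPKM and Xrcc5 2.11, and in the Fzr1-OE blastocysts both stayed at or above 17.0. The genes that act after Ku did not pass as deposited. Prkdc, the kinase that Ku recruits, changed by 0.11, the scaffold Xrcc4 by 1.54 and the ligase Lig4 by -0.71. Lig4 passed as lower at -1.71 under quantile normalization and -1.29 under upper-quartile scaling (adjusted p = 0.00248 and 0.0178 by limma). Prkdc passed as lower under quantile normalization only, at -0.94 (adjusted p = 0.0266 by limma). Prkdc and Lig4 stood at 0.909 and 1.18 FPKM in Control, on average, and Xrcc4 at 21.1.

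**Figure D3:**
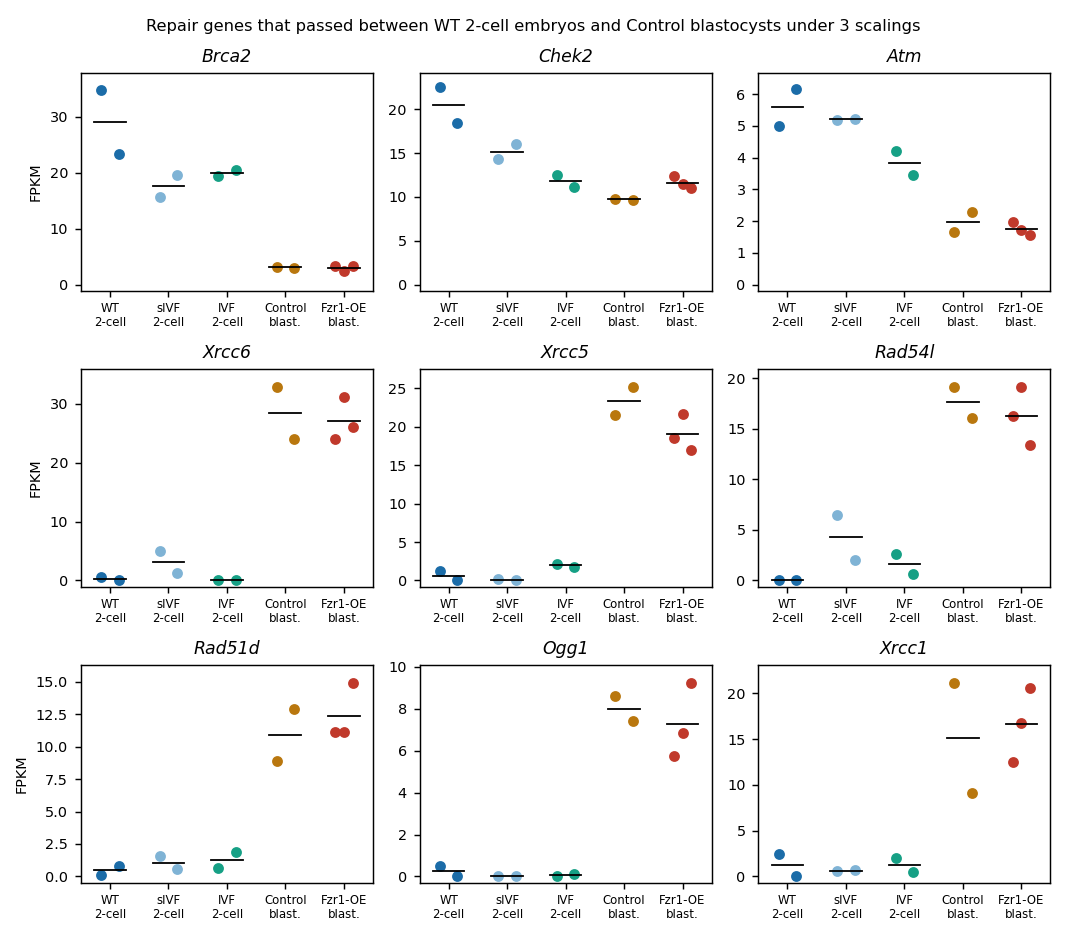
Points give the FPKM of each library and bars the group mean for 9 of the 14 repair genes that passed under all 3 scalings, in the 3 2-cell groups and the 2 blastocyst groups (n = 2, or n = 3 for Fzr1-OE). The top row holds the 3 genes that fell and the other rows hold genes that rose; in all but Chek2 no 2-cell library overlaps a blastocyst library.

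Base excision and single-strand break repair had the largest share of genes that rose as deposited, 6 of 7, where 45.8% of all loci rose. The median was 1.88, against 0.88 for all loci. Of the 6, only Ogg1, Parp1 and Xrcc1 passed under all 3 scalings. Ogg1, the glycosylase that removes oxidized guanine, read 0.482 and 0 FPKM in WT and 8.6 and 7.42 in Control, a change of 2.88 (SE 0.31, adjusted p = 5.04e-05 by limma). Ogg1 was at 0 in 4 of the 6 2-cell libraries. Parp1, the break sensor that builds poly(ADP-ribose), read 10.8 and 7.26 in WT and 35.0 and 35.8 in Control, a change of 1.88 (SE 0.38, adjusted p = 0.00225 by limma), and the blastocysts lay at 30.1 or above.

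Xrcc1, the scaffold that Parp1 recruits, read 2.41 and 0 in WT and 21.2 and 9.13 in Control, a change of 3.02 (SE 0.62, adjusted p = 0.0024 by limma). Mutyh, which removes adenine paired with oxidized guanine, read 0 and 0.0159 in WT and 2.60 and 1.53 in Control, a change of 1.58 (SE 0.35, adjusted p = 0.00376 by limma) that was 0.48 and did not pass after quantile normalization (adjusted p = 0.323 by limma). Ung, the uracil glycosylase, rose by 2.32; at 1.45 after upper-quartile scaling it did not pass (adjusted p = 0.0523 by limma). Apex1 rose by 0.87, no more than the median locus, and stood at 0.02 after quantile normalization and -0.07 after upper-quartile scaling. The Xrcc1 partner ligase Lig3 also changed by 0.87 and did not pass (adjusted p = 0.146 by limma).

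Of the last 2 roles, only Ercc1, a subunit of the nuclease that cuts beside bulky lesions, rose as deposited: 6.86 and 13.9 FPKM in WT against 36.5 and 32.9 in Control, a change of 1.72 (adjusted p = 0.0465 by limma). The IVF embryos read 10.6 and 40.3, so the stages overlapped, and Ercc1 did not pass after quantile normalization. Its partner Ercc4 changed by 0.16 and the damage-verifying gene Xpa by 0.68, and neither passed. Msh6 changed by 0.70 and the mismatch nuclease Pms2 by 0.79, also without passing.

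A wider list of 82 other DNA repair genes, also written with earlier results known, gave 34 of 73 that rose and 12 that fell. These shares, 46.6% and 16.4%, were close to the 45.8% and 19.6% of all loci, and the median was 0.79 against 0.88. Usp1, which removes ubiquitin from Fancd2, read 104.8 and 139.4 FPKM in WT and 28.3 and 25.5 in Control, a change of -2.13 (SE 0.19, adjusted p = 1.66e-05 by limma). Rif1, which protects broken ends from resection, fell from 70.4 and 63.3 to 13.6 and 15.2, and the fork protection gene Tipin fell from 460.3 and 325.8 to 138.3 and 125.8. Tdg, a thymine glycosylase, and Mgmt, which removes alkyl groups from guanine, were listed at 0 in all 6 2-cell libraries. Tdg stood at 19.7 to 30.3 FPKM and Mgmt at 13.6 to 26.7 in the blastocysts.

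The 2-cell comparisons address whether embryos made by IVF differ from WT embryos. None of the 40 repair genes tested passed between IVF and WT by limma, and none had an unadjusted p under 0.05; of the 8246 loci tested, 0.0121% passed and 12.4% had an unadjusted p under 0.05. The 15 genes too low to be tested at this stage were Atr, Brca1, Rad51b, Rad51d, Xrcc3, Xrcc5, Ogg1, Mutyh, Fanca, Fancb, Fancd2, Fance, Fancg, Fanci and Fancl. The median repair gene changed by 0.07 and the median locus by 0.09. Summed oocyte-deposited markers stood at 117.6 and 98.7 FPKM in WT, 213.7 and 188.0 in sIVF and 139.3 and 184.7 in IVF. Markers of the first wave of embryonic transcription, of which 6 were in the tables, summed to 127.0 and 90.4 FPKM in WT, 138.1 and 136.9 in sIVF and 58.2 and 68.2 in IVF. The same markers summed to 92.2 to 109.0 FPKM in the blastocysts, where 1 to 4 of the 6 reached 1 FPKM. The sum therefore does not measure the first wave alone. The part of these markers in the 2-cell differences was not tested. The groups did not overlap for 7 genes that were higher and 6 that were lower in IVF, 32.5% of those tested against 42.2% of all loci (22.8% higher and 19.3% lower).

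Chek2 had the smallest p: 22.6 and 18.5 FPKM in WT and 12.5 and 11.2 in IVF, a difference of -0.74 (SE 0.37, adjusted p = 0.472 by limma). The groups did not overlap, and the sIVF libraries lay between them at 14.3 and 16. Lig4 read 1.56 and 3.96 in WT and 0.652 and 0.211 in IVF (-1.33, SE 0.71, adjusted p = 0.503 by limma). Xpa read 3.0 and 6.72 in WT and 9.04 and 10.1 in IVF (0.92, SE 0.53, adjusted p = 0.548 by limma). For these genes the IVF pair lay wholly to one side of the WT pair, but the difference did not pass against the spread of the 2-cell libraries. Rad54l, near 0 in WT, read 2.66 and 0.678 in IVF (1.29, SE 0.79, adjusted p = 0.581 by limma), and Fancf was listed at 0 in both WT libraries and read 0.802 and 6.31 in IVF (adjusted p = 0.531 by limma).

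The sIVF comparison shares the WT libraries with the one above. None of the 40 repair genes passed by limma, and 3 had an unadjusted p under 0.05; of all loci 0% passed and 7.09% had an unadjusted p under 0.05. The median repair gene changed by -0.04 and the median locus by 0.06. The groups did not overlap for 6 genes that were higher and 10 that were lower in sIVF, 40% against 35.9% of all loci (20.6% higher and 15.3% lower). Rad54l read 6.45 and 2.07 FPKM in sIVF (2.24 over WT, SE 0.79, adjusted p = 0.595 by limma). Msh6 read 3.0 and 2.95 in sIVF against 6.97 and 12.2 in WT (-1.37, SE 0.50, adjusted p = 0.604 by limma). Rad51c, a recombinase paralog, read 0.708 and 0 against 3.13 and 2.95 (-1.63, SE 0.70, adjusted p = 0.696 by limma). In all 3 the groups did not overlap. Brca2 read 15.7 and 19.7 in sIVF (-0.67, adjusted p = 0.753 by limma) and Xrcc6 read 5.06 and 1.26 (1.52, adjusted p = 0.756 by limma).

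Between sIVF and IVF, which share libraries with both comparisons above, none of the 40 genes passed by limma, and 4 had an unadjusted p under 0.05, where 0% and 11.8% of all loci did. The groups did not overlap for 6 genes that were higher and 10 that were lower in sIVF, 40% against 42.7% of all loci (21.7% higher and 21.0% lower). The median repair gene changed by -0.20 and the median locus by -0.02. Msh6, at 9.94 and 9.86 FPKM in IVF, was lower in both sIVF libraries (-1.45, SE 0.50, adjusted p = 0.303 by limma). Apex1 was higher in both, at 93.0 and 74.2 against 63.2 and 33.0 (0.85, SE 0.35, adjusted p = 0.401 by limma). Atrip was listed at 0 in both sIVF libraries and read 2.62 and 1.85 in IVF, and Xrcc6 was listed at 0 in both IVF libraries. Xrcc4 read 0 and 5.95 in sIVF and 4.82 and 12.3 in IVF (-1.74, SE 0.92, adjusted p = 0.516 by limma), so its groups overlapped. Of the 62 other repair genes tested, none passed in any of the 3 2-cell comparisons by limma, and 5, 4 and 5 had an unadjusted p under 0.05.

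**Figure D4:**
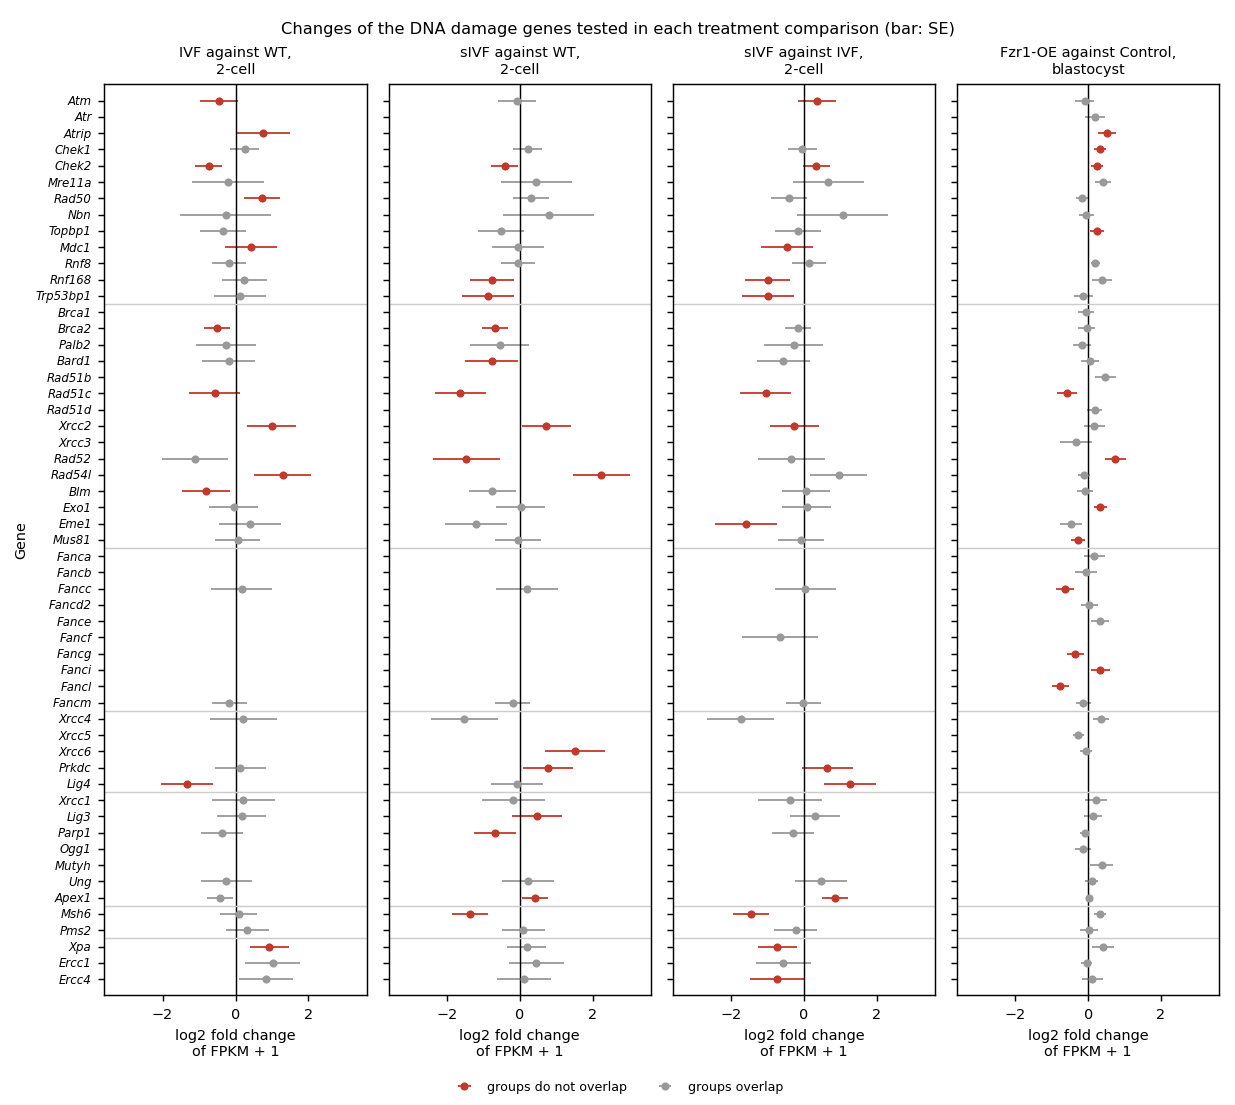
Each panel gives the log2 fold change of FPKM + 1 with its SE for the repair genes tested in 1 comparison, red where the libraries of the groups do not overlap. Genes below the filter, and genes that a group lists at 0, are left out. No gene passed in any panel, and the blastocyst panel shows changes between -0.77 and 0.74.

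In blastocysts, none of the 51 repair genes tested passed between the libraries labelled Fzr1-OE and Control by limma, and 3 had an unadjusted p under 0.05. Of the 9439 loci tested, 4.21% passed (2.29% higher and 1.92% lower) and 19.7% had an unadjusted p under 0.05. The genes changed by between -0.77 and 0.74, with a median of 0.03 against 0.01 for all loci. The groups did not overlap for 7 genes that were higher and 5 that were lower in Fzr1-OE, 23.5% against 37.4% of all loci (19.0% higher and 18.4% lower). The genes too low to be tested were Fancf, Lig4, Prkdc and Mdc1.

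Fancl had the smallest p. It read 2.74, 4.50 and 3.80 FPKM in the libraries labelled Fzr1-OE and 6.88 and 6.89 in Control, a difference of -0.77 (SE 0.23, adjusted p = 0.103 by limma), with all 3 libraries below both controls. Fancc, of the same core complex, read 1.71, 2.42 and 2.49 against 3.88 and 4.02 (-0.64, SE 0.24, adjusted p = 0.183 by limma), again without overlap. Rad52, a recombination mediator, lay the other way at 4.31, 4.80 and 2.29 against 1.79 and 1.79 (0.74, SE 0.29, adjusted p = 0.198 by limma). Of the 9 Fanconi genes tested, 4 did not overlap, 44.4% against the 37.4% of all loci, and none passed: Fancl, Fancc and Fancg lay lower and Fanci higher. Trophectoderm markers, whose sums are given above, were lower in all 3 Fzr1-OE libraries; their part in these differences was not tested.

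Atrip read 4.44, 4.16 and 3.97 against 3.41 and 1.98 FPKM (0.52, SE 0.25, adjusted p = 0.286 by limma). Rad51c read 2.47, 1.18 and 2.38 against 3.76 and 3.07 (-0.58, SE 0.28, adjusted p = 0.298 by limma). Both were without overlap and did not pass. The groups overlapped for Xrcc6 at 24.0 to 31.2 against 24.0 and 32.9, for Brca2 at 2.43 to 3.31 against 3.01 and 3.15, and for Apex1 at 114.4 to 118.2 against 110.7 and 117.4. Lig4, below the filter, read 0.551, 0.491 and 0.537 against 1.24 and 1.11.

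Of the 72 other repair genes tested in blastocysts, Rpa3, a subunit of the protein that coats single-stranded DNA, was the only one that passed, 1.39% of them against 4.21% of all loci. It read 68.4, 72.8 and 70.0 FPKM in the libraries labelled Fzr1-OE and 97.9 and 101.3 in Control, a difference of -0.50 (SE 0.09, adjusted p = 0.0146 by limma). With no filter on low values no locus passed in this comparison. In 2-cell embryos Rpa3 read 66.6 and 56.9 in WT, 53.0 and 66.1 in sIVF and 33.8 and 18.0 in IVF, where the IVF difference from WT of -1.28 did not pass (SE 0.35, adjusted p = 0.191 by limma).

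The authors' deposited tables for subcutaneous fat of Fzr1-OE and Control mice list gene ontology terms with gene symbols. None of the 55 repair genes was among the 449 symbols of the RNA table or the 119 of the methylation table. In the authors' deposited tables these symbols stand under 1605 and 632 terms.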

How the data were processed

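The study has 25 samples, and the 11 with gene expression tables were used: 6 libraries of 2-cell embryos and 5 of blastocysts, made from amplified cDNA of embryo lysates per the labels' protocols. The authors deposited FPKM per gene with lower and upper bounds, per the file headers. Build mm9 and, among other tools, HISAT2 2.1.0 with Cufflinks 2.2.1 stand in the submitters' processing notes, without an order of use. Strand use in counting is not given in the sources used here. The deposited p-values and gene ontology terms of the fat tables were the authors' own and were read only for gene symbols.

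Values were transformed as log2(FPKM + 1) and loci averaging 1 FPKM or more over the libraries of a fit were tested with limma 3.58.1 (lmFit, eBayes with an intensity trend) in R 4.3.3, with Benjamini-Hochberg adjustment over all loci and a threshold of 0.05. The 6 2-cell libraries entered 1 fit, the 5 blastocyst libraries another, and the stage contrast came from a fit of all 11. Group labels were taken from the sample titles. Implied fragments treat the bounds as 2 Poisson standard deviations; low values came out whole within 0.05 for 45.9% to 50.5% of loci, so no count test was run. The fits were tested on simulated data.

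Genes given in full were those that passed (up to 12 of smallest p per direction), or the 5 of smallest p where fewer than 3 passed, and the highest gene of each role. The genes, roles and lists were chosen with earlier results of these data known. Alternatives were another pseudocount, other filters, 2 other scalings, no trend, a replicate block, fewer libraries and leaving out each replicate. H3K9me3 and fat methylation signals were not analysed here.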

Additional observations from a re-analysis of the deposited data

How the results depend on the processing

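For the stage change, 24 repair genes rose as deposited; 20 did with a pseudocount of 0.1, 19 with no filter, 13 with a filter of 5 FPKM that tested 24 genes, 12 after quantile normalization, 14 after upper-quartile scaling and 21 with only the libraries compared. The 3 that fell became 11 after quantile normalization and 7 after upper-quartile scaling; the all-loci median moved from 0.88 to -0.02 and 0.16 with these scalings. Leaving out 1 replicate gave 14 (without Control replicate 1) to 23 that rose and 3 to 4 that fell. Over all loci the stage counts moved too. As deposited 4472 loci were higher and 1909 lower, and without 1 replicate 3544 to 4420 were higher and 1490 to 1821 lower. Across the 12 alternatives 2829 to 5062 loci were higher and 1346 to 3033 lower. Whether the repair genes moved more than all loci did was not tested. With the replicate block 21 rose and 3 fell; deviations of same-numbered libraries correlated at -0.04 to 0.07, so the numbers did not pair the libraries. In the 4 treatment comparisons 0 repair genes passed by limma under every alternative, the replicate block and each left-out replicate included. Of the 15 genes with the smallest p in the stage change (12 that rose, 3 that fell), Fancb (1.05) and Mutyh (0.48) did not pass after quantile normalization. No other alternative listed here ended a call or turned a direction among them where the gene was tested. Atm, Ogg1, Fancl, Fancb, Mutyh and Fancg were too low to be tested with the filter of 5 FPKM. Fancg was also too low in 1 fit with a replicate left out. Other genes lost or gained calls with the scaling, as given in the report. Named treatment differences did not pass and moved with 1 replicate left out, Xrcc4 from -3.14 to -0.34 and Apex1 from 0.39 to 1.31 between sIVF and IVF, and Lig4 from -1.81 to -0.86 and Xpa from 0.45 to 1.40 between IVF and WT.

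Over all loci, the blastocyst comparison gave 216 higher and 181 lower, 0 and 0 with no filter, 30 and 11 with no trend, 23 and 24 with the replicate block, and 41 to 189 and 46 to 161 without 1 replicate (fewest without Control replicate 2). The stage change gave 4472 and 1909, and 2829 and 3033 after quantile normalization. IVF against WT gave 1 and 0, and 12 and 9 with a filter of 5 FPKM. The sIVF against IVF gave 0 and 0, 24 and 8 with that filter, and 9 and 6 after quantile normalization. The causes were not tested. The 2 libraries in most groups, and in 2-cell embryos the median of 83.5 to 140 implied fragments over the repair genes above 0, limit the precision.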
